A study of Mus musculus with 4 samples.

Results

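The mitochondrial ribosomal protein genes were taken as all genes whose symbol is Mrpl or Mrps followed by a digit, without pseudogene symbols, among probe sets given a single gene symbol. These members numbered 77 (85 probe sets) of 19938 genes on the array, and for the 8 with more than 1 probe set the one with the highest mean over all arrays was used. The mitochondrial ribosome makes the few proteins encoded in mitochondrial DNA, all of them parts of the respiratory chain and the ATP synthase. Its RNAs come from mitochondrial DNA, but every one of its proteins is encoded in the nucleus, made in the cytosol and imported. The Mrpl genes are named for the large subunit, which joins amino acids, and the Mrps genes for the small subunit, which reads the messenger RNA. Many of the proteins descend from bacterial ribosomal proteins, and the others are found only in mitochondrial ribosomes. In macrophages, lipopolysaccharide (LPS), a bacterial cell wall component sensed by TLR4, is known to shift energy metabolism away from respiration.

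RNA from mouse microglia in culture (microglia are the brain's own macrophages) had been read on 4 Affymetrix Mouse Gene 1.0 ST arrays, 1 for each group. The groups were microglia labelled Bid-/- with LPS for 3 h, microglia labelled Bid-/- without treatment, wild-type (WT) C57Bl microglia with LPS for 3 h, and WT C57Bl microglia without treatment. Bid belongs to the BH3-only branch of the Bcl-2 proteins and relays death signals to mitochondria, and the study compared the inflammatory transcription of cells with and without it. The sources used here give no strain for the Bid-/- cells, no description of the deletion, no age or sex, and no count of mice or cultures.

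Values are log2 expression, and a difference is the first group minus the second on that scale. A gene past the floor had a mean over the 4 arrays of at least 4.26, the median over all probe sets; 10674 genes and 76 of the 77 members passed. The member below it was Mrps36, whose human protein has since been assigned to the 2-oxoglutarate dehydrogenase complex and not to the ribosome. Each group has 1 array, so differences between arrays stand without a check by replicates, and fewer cells of a type cannot be told apart from less RNA per cell.

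The labels were checked first. Bid read 5.97 and 5.53 on the LPS and control arrays labelled Bid-/-, and 5.02 and 5.69 on the WT LPS and control arrays. With LPS it was therefore higher, not lower, under the Bid-/- label. The sources used here do not place its probes relative to the deleted part, so this may check nothing, and genotypes below are those of the labels. Of 14 measured microglia markers 11 passed the floor (not P2ry12, Gpr34 or Siglech), as did 0 of 6 neuron, 3 of 7 astrocyte, 5 of 6 oligodendrocyte lineage and 7 of 9 fibroblast and mural markers. The summed log2 level of the microglia markers was 106.68 and 111.65 on the LPS and control arrays labelled Bid-/-, and 108.84 and 112.19 on the WT LPS and control arrays. That of the fibroblast and mural markers was 49.54 and 50.36 on the LPS and control arrays labelled Bid-/-, and 50.98 and 43.98 on the WT LPS and control arrays. Compared at the same treatment, both arrays labelled Bid-/- had higher values of Uty, Kdm5d and Eif2s3y, which lie on the Y chromosome, and lower values of Nnt, the mitochondrial transhydrogenase gene. Xist, which is transcribed from the inactive X chromosome of female cells, read 8.27 and 7.73 on the LPS and control arrays labelled Bid-/-, and 8.24 and 8.05 on the WT LPS and control arrays. Sex, background and culture thus cannot be told apart from genotype.

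Promoters of genes for mitochondrial proteins are known for sites of NRF-1, of the ETS factor GABP (also called NRF-2) and of YY1. RefSeq promoter windows of build GRCm38.p6, from 250 bases before to 50 after the start of transcription, were held for 68 members. The NRF-1 consensus, shown in capitals in the Mrpl44 window below and searched with any base at the sixth position, was found on either strand in 19.1% of these members, against 7.2% of 17492 protein-coding genes. The letters CCGGAAG (ETS) were found in 36.8% of members against 12.9% of all genes, and AANATGGCG (YY1) in 16.2% against 3.6%. At least 1 of the 3 was present in 41 members, or 60.3%, against 20.9% of all genes. The TATA box letters TATAAA were found in 7.4% of members against 14.8% of all genes, and an NF-kB-like pattern (GGGA, any 4 bases, CC) in 20.6% against 25.6%. The shared letters are a description of these windows.

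Windows of 5 members at the ends of the results below are shown from 200 bases before to 30 after the start, 5′ to 3′, with motif letters in capitals. Mrpl23 and Mrpl36 had the largest deficits between the LPS arrays, Mrpl34 had LPS differences of opposite sign under the 2 labels, Mrpl44 had the lowest adjusted p for LPS, and Mrps27 the largest excess between the LPS arrays, labelled Bid-/- minus WT. They lie at chr7:142532832-142533061 (+ strand), chr13:73330809-73331038 (+ strand), chr8:71464726-71464955 (+ strand), chr1:79775818-79776047 (+ strand) and chr13:99344586-99344815 (+ strand).
Mrpl23: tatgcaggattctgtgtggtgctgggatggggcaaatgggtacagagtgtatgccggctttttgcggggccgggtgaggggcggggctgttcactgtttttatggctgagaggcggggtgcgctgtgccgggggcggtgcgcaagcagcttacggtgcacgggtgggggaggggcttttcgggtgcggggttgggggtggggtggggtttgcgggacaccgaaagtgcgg
Mrpl36: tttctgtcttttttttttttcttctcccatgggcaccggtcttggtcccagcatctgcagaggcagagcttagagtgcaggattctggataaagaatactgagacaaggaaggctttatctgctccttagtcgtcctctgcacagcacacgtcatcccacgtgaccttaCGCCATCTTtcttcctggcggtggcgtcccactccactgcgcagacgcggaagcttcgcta
Mrpl34: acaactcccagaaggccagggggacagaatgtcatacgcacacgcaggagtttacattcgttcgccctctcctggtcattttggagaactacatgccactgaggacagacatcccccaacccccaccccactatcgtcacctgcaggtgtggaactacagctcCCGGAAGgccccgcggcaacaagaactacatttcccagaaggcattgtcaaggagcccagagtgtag
Mrpl44: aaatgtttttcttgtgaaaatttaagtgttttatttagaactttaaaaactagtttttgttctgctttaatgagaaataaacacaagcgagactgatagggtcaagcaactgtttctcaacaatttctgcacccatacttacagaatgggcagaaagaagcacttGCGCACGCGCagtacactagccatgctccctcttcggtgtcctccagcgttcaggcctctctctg
Mrps27: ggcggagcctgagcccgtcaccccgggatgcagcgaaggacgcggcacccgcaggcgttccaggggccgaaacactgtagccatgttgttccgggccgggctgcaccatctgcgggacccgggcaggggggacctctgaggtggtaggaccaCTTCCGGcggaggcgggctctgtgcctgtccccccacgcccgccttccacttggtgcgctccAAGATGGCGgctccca
The capitals mark a YY1 pattern in Mrpl36 (on the opposite strand, beginning 31 bases before the start), an ETS pattern in Mrpl34 (beginning 37 bases before the start), an NRF-1 pattern in Mrpl44 (beginning 35 bases before the start), and an ETS pattern on the opposite strand and a YY1 pattern in Mrps27 (beginning 48 bases before the start and 14 bases after it). The Mrpl23 window held none of the 3. Medians of the difference between the LPS arrays, labelled Bid-/- minus WT, are given by motif as a description. They cover all 68 members with a window, including Mrps36, which is below the floor. The median was -0.53 in the 13 members with the NRF-1 consensus and -0.58 in the 55 without it. It was -0.61 in the 25 with the ETS letters and -0.53 in the 43 without, and -0.63 in the 11 with the YY1 letters and -0.55 in the 57 without.

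The mitochondrial ribosomal protein genes stood lowest as a group on the LPS array labelled Bid-/-. The median member level was 6.19 and 6.625 on the LPS and control arrays labelled Bid-/-, and 6.77 and 6.625 on the WT LPS and control arrays. The LPS array labelled Bid-/- held the lowest of the 4 values for 70 of 76 members, against 31.7% of all 10674 genes. The control arrays of both labels had equal medians, and the WT LPS array had the highest. The other 6 members were lowest on the WT LPS array (3), the control array labelled Bid-/- (2) or the WT control array (1).

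**Figure D1:**
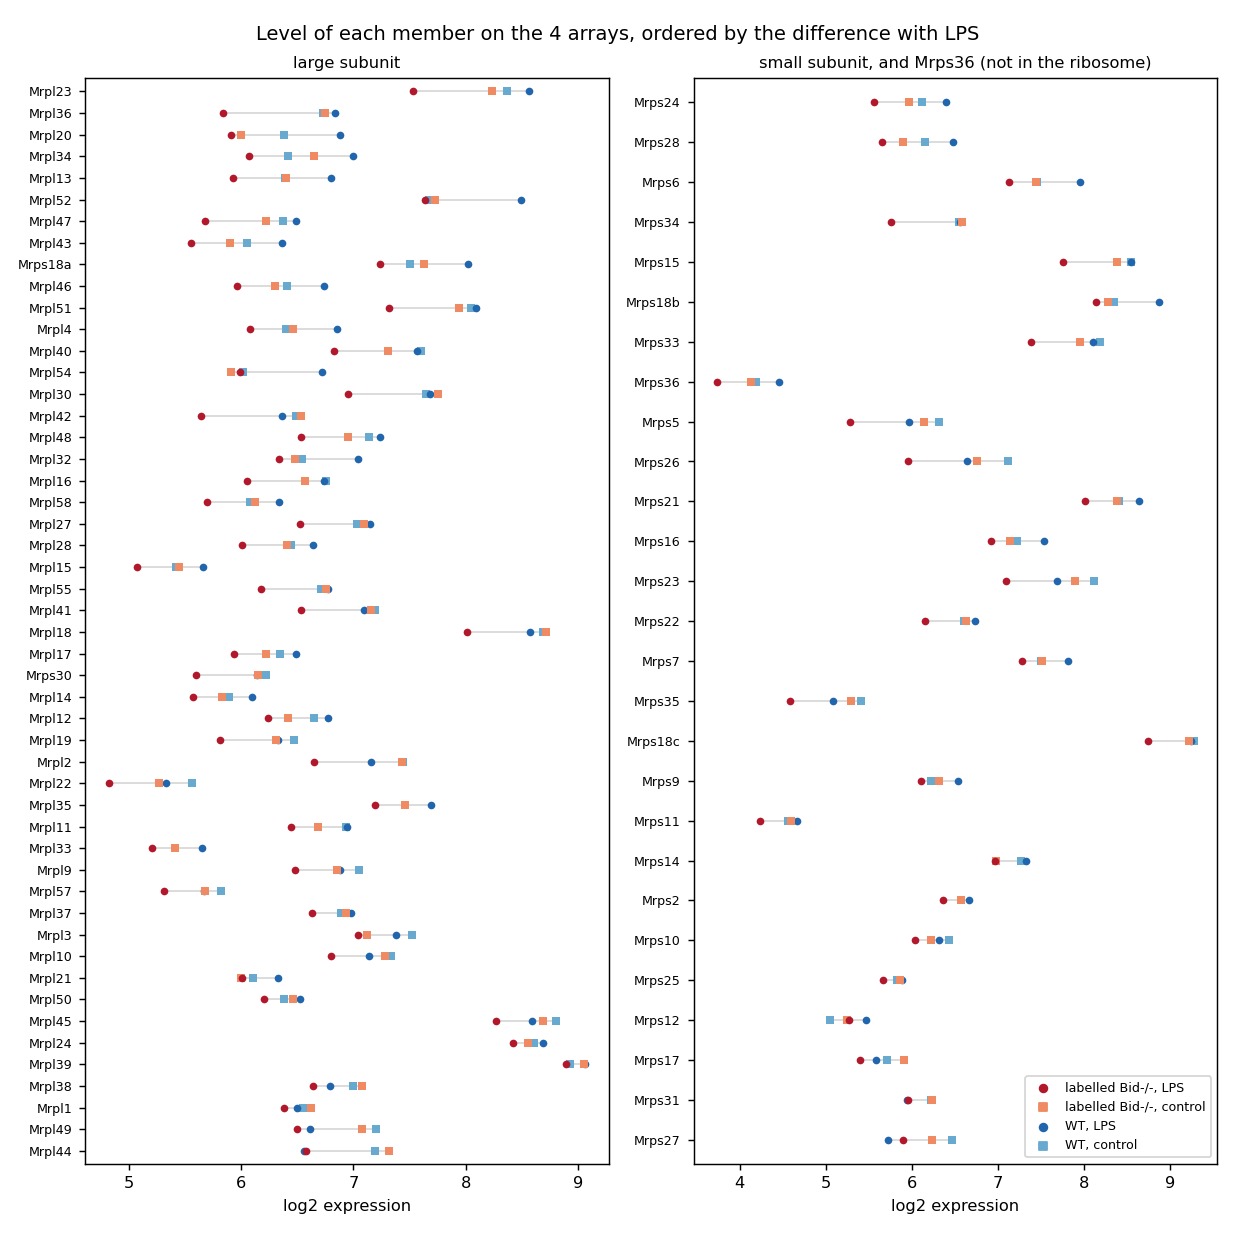
Log2 expression (horizontal axis) of each of the 77 members on the 4 arrays, with large subunit members on the left and small subunit members and Mrps36 on the right, ordered from the largest deficit to the largest excess of the LPS array labelled Bid-/- over the WT LPS array. Dark red circles (LPS, labelled Bid-/-) lie at the left end of most lines; Mrpl44, Mrps31 and Mrps27, at the bottom, are the exceptions in which the dark blue circle (LPS, WT) is lower.

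In WT microglia the members were spread around 0 with LPS. The median LPS difference was 0.09, with 47 members above 0 and 28 below, while all genes had a median of -0.05 with 43.3% above 0. Mrpl52 and Mrpl54, both found only in mitochondrial ribosomes, were the 2 members at least 1.5-fold higher, against 5.86% of all genes. Mrpl52 read 8.49 on the WT LPS and 7.67 on the WT control array, a difference of 0.82, and Mrpl54 read 6.72 and 6.02 (0.70). The 3 members at least 1.5-fold lower, against 11.2% of all genes, were Mrps27, Mrpl44 and Mrpl49. Mrps27, a pentatricopeptide repeat protein of the small subunit, read 5.72 on the WT LPS and 6.46 on the WT control array (-0.74). Mrpl44, a ribonuclease III-like protein near the exit of the nascent chain, read 6.56 and 7.19 (-0.63), and Mrpl49 read 6.61 and 7.20 (-0.59). None of the 76 members was 2-fold different, against 2.41% of all genes higher and 2.1% lower.

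On the arrays labelled Bid-/-, nearly all members read lower with LPS. The median LPS difference was -0.385, with 73 of 76 members below 0, while all genes had a median of -0.10 with 60.5% below 0. Of the members 15 were at least 1.5-fold lower, against 10.4% of all genes, and 0 were at least 1.5-fold higher, against 6.9%. After removal of a gene span trend the median was -0.24 and 8 members were at least 1.5-fold lower, against 5.74% of all genes. With intensity and span trends removed together these were -0.215 and 7 members, against 5.23%. None was 2-fold different, against 1.62% of all genes lower and 2.69% higher. Mrpl36, a small protein of bacterial descent in the large subunit, read 5.84 on the LPS and 6.75 on the control array labelled Bid-/- (-0.91). Mrpl42 read 5.64 and 6.53 on those arrays (-0.89), and Mrps5, which lines the entry of the messenger RNA channel, 5.28 and 6.14 (-0.86, with -0.30 by its other probe set). Mrps34, a small subunit protein found only in mitochondria, read 5.76 and 6.58 (-0.82). The others of the 15 were Mrpl30, Mrps26 and Mrps23 (-0.80 each), Mrpl2, which lies near the peptidyl transferase centre (-0.78), Mrpl44 (-0.74), Mrps35 (-0.71), Mrpl23 and Mrpl18 (-0.70 each), Mrps15 and Mrpl41 (-0.63 each), and Mrpl51 (-0.62). The other probe sets of Mrpl23, Mrpl41 and Mrpl51 gave -0.69, -0.33 and -0.53, the last 2 short of 1.5-fold. The 3 members above 0, against 38.2% of all genes, were Mrpl54 (0.08), Mrps12, the decoding centre protein (0.03), and Mrpl21 (0.01).

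The sign of the LPS difference was often opposite under the 2 labels. Of 76 members 44 were above 0 in WT and below 0 on the arrays labelled Bid-/-, against 16.8% of all genes. Of the others, 28 were below 0 and 3 above 0 under both labels. The shares of all genes with the same sign under both labels were not counted, so nothing is read from these last counts. Mrpl34, another small large-subunit protein of bacterial descent, read 6.07 and 6.65 on the LPS and control arrays labelled Bid-/-, and 7.00 and 6.42 on the WT LPS and control arrays. Its LPS difference was thus -0.58 under one label and 0.58 under the other. Across the 76 members, which are not independent replicates, the LPS differences under the 2 labels, which share no array, had Pearson's r of 0.515 and Spearman's rho of 0.507, against 0.748 and 0.603 across all genes past the floor. Mrpl44, Mrpl49, Mrpl2, Mrps26, Mrps23, Mrps5 and Mrps35 were among the 16 lowest members under both labels. Mrps27, the lowest in WT (-0.74), had -0.34 on the arrays labelled Bid-/-.

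**Figure D2:**
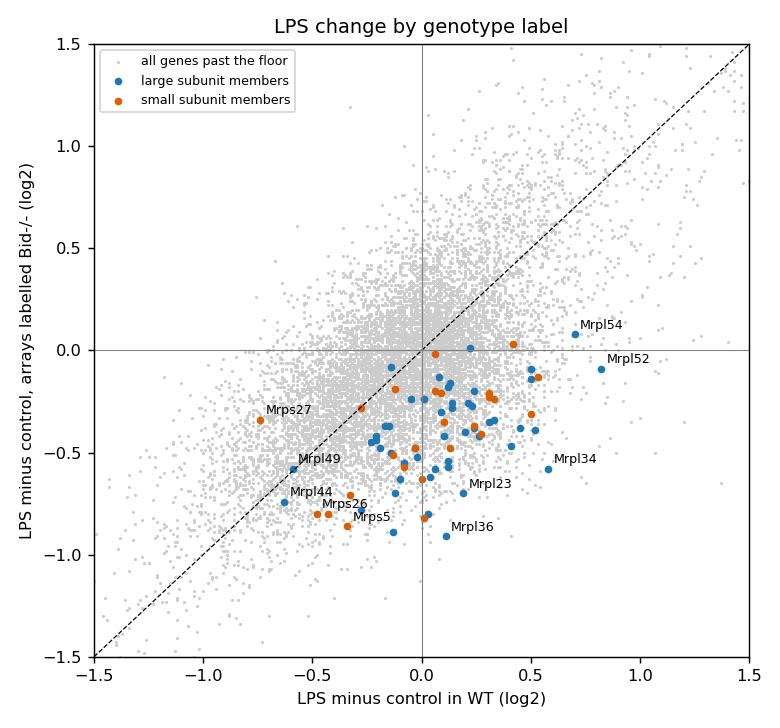
LPS difference (log2) in WT on the horizontal axis and on the arrays labelled Bid-/- on the vertical axis, for all genes past the floor (grey) and for large (blue) and small (orange) subunit members; both axes stop at 1.5 either way. Most members lie below the dashed line of equal change, with 44 at the lower right, above 0 in WT and below 0 under the other label, and Mrps27 above the line.

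Without LPS the labels differed little. The median difference between the control arrays, labelled Bid-/- minus WT, was -0.055, with 45 members below 0 and 28 above, while all genes had a median of 0.01 with 45.7% below 0 and 51.7% above. The range was from -0.40 to 0.23, and 0 members were at least 1.5-fold different, against 0.393% of all genes lower and 1.41% higher (2-fold, 0.0562% lower and 0.365% higher). Mrpl3, which reaches the peptidyl transferase centre, was at the low end with 7.12 on the control array labelled Bid-/- and 7.52 on the WT control array. Mrpl20 (-0.38) and Mrps26 (-0.37) followed, and Mrpl34 (0.23), Mrps17 (0.20) and Mrps12 (0.19) were at the high end.

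With LPS the members read lower under the Bid-/- label. The median difference was -0.56, with 73 of 76 members below 0, while all genes had a median of 0.02 with 47.1% below 0 and 51.6% above. At least 1.5-fold lower were 36 members, against 6.11% of all genes, and 0 were at least 1.5-fold higher, against 4.75%. At least 2-fold lower were Mrpl23 and Mrpl36, against 0.478% of all genes, and 0 members were 2-fold higher, against 0.337%. Mrpl23, on the rim of the polypeptide exit tunnel, read 7.53 and 8.23 on the LPS and control arrays labelled Bid-/-, and 8.56 and 8.37 on the WT LPS and control arrays, a difference between the LPS arrays of -1.03. Its other probe set gave -1.07. Mrpl36 read 5.84 on the LPS array labelled Bid-/- and 6.84 on the WT LPS array (-1.0), while the control arrays had 6.75 under the Bid-/- label and 6.73 in WT.

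Other large subunit members followed. Mrpl20, a bacterial-type protein known in bacteria for a role early in assembly, read 5.91 on the LPS array labelled Bid-/- and 6.88 on the WT LPS array (-0.97). Mrpl34 followed with -0.93, Mrpl13 with -0.87 and Mrpl52 with -0.85. In Mrpl52 the 2 arrays labelled Bid-/- (7.64 and 7.73) and the WT control array (7.67) lay close together and the WT LPS array was high (8.49). Mrpl54 had the same profile, with 5.99 and 5.91 on the LPS and control arrays labelled Bid-/-, and 6.72 and 6.02 on the WT LPS and control arrays. In Mrpl36, by contrast, the LPS array labelled Bid-/- alone was low, and in Mrpl34 both LPS arrays differed from their controls.

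By site on the large subunit, all 8 proteins of the central protuberance were lower with LPS on the array labelled Bid-/-, with a median of -0.635. Since 73 of 76 members and 47.1% of all genes were below 0 in this comparison, counts by site add little to that of the members as a whole. The 8 ranged from Mrpl46 (-0.78) and Mrpl40 (-0.74) to Mrpl38 (-0.15), and included Mrpl58 (-0.64), a peptidyl-tRNA hydrolase that became a structural protein. Around the polypeptide exit tunnel 6 of 7 were lower, with a median of -0.51: besides Mrpl23, Mrpl47 read -0.81 (-0.23 by its other probe set) and Mrpl17 -0.55, Mrpl45, known in humans to hold the ribosome at the inner membrane, -0.32, and Mrpl44 0.02. The 3 proteins of the factor-binding stalk and its base were all lower. Mrpl12, which in human cells also binds the mitochondrial RNA polymerase, read 6.24 on the LPS array labelled Bid-/- and 6.77 on the WT LPS array (-0.53), Mrpl11 differed by -0.50 and Mrpl10 by -0.34.

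The subunits and the origins of the proteins gave nearly the same medians. With LPS, labelled Bid-/- minus WT, the 50 large subunit members had a median of -0.56 and the 26 small subunit members of -0.555. In the large subunit this was -0.555 for 30 members of bacterial descent and -0.56 for 19 found only in mitochondria. In the small subunit it was -0.53 for 15 and -0.58 for 9. The LPS difference in WT was less even, with a median of 0.24 for the 15 small subunit members of bacterial descent and of -0.28 for the 9 found only in mitochondria. On the arrays labelled Bid-/- the same groups had -0.24 and -0.57. No test of these differences between groups of members was run.

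**Figure D3:**
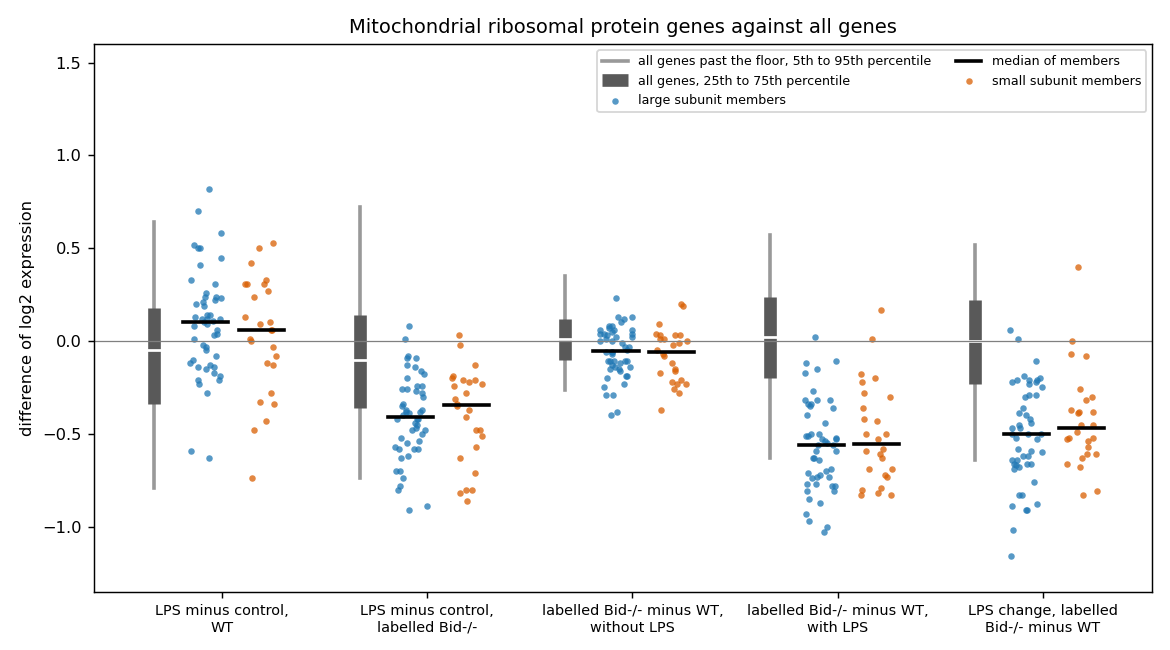
Differences of log2 expression (vertical axis) in 5 comparisons for large (blue) and small (orange) subunit members past the floor, with black lines at their medians; grey bars give the 5th to 95th and 25th to 75th percentiles of all genes past the floor, with a white line at the median. Members sit around 0 in WT with LPS and between the control arrays, and mostly below 0 in the others, with medians near -0.56 in both subunits between the LPS arrays.

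In the small subunit, Mrps24 (the counterpart of bacterial S3) and Mrps28 were the lowest between the LPS arrays, both at -0.83. Mrps24 read 5.56 and 5.97 on the LPS and control arrays labelled Bid-/-, and 6.39 and 6.12 on the WT LPS and control arrays. Mrps6 differed by -0.82, Mrps34 by -0.80 and Mrps15 by -0.79. Mrps5 differed by -0.69 and Mrps22, in which variants are known to cause respiratory chain disease in humans, by -0.58. Mrps12 was among the least different (-0.20), with 5.27 on the LPS array labelled Bid-/- and 5.47 on the WT LPS array. Mrps31 (5.95 and 5.94) and Mrps27 (5.89 and 5.72) were not lower on the LPS array labelled Bid-/-.

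The 3 descendants of bacterial S18 sit at different places of the ribosome and can be compared directly with each other only in their differences. Between the LPS arrays Mrps18a, which is part of the large subunit, differed by -0.78, and Mrps18b and Mrps18c, both of the small subunit, by -0.73 and -0.50. With LPS in WT, Mrps18a and Mrps18b were higher (0.52 and 0.53) and Mrps18c was not (-0.03). Mrps30, which despite its name lies in the large subunit, differed by -0.54 between the LPS arrays. Mrps36, below the floor, read 3.74 and 4.13 on the LPS and control arrays labelled Bid-/-, and 4.46 and 4.19 on the WT LPS and control arrays.

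The difference of the LPS differences, labelled Bid-/- minus WT, had a median of -0.50, against 0.00 for all genes. Of 76 members 72 were below 0, against 48.8% of all genes (49.8% above), and 28 were at least 1.5-fold lower, against 6.16%, with 0 at least 1.5-fold higher, against 3.33%. After removal of a gene span trend 14 were at least 1.5-fold lower, against 4.41% of all genes. Mrpl34 (-1.16) and Mrpl36 (-1.02) were at least 2-fold lower, against 0.646% of all genes (0.15% 2-fold higher). Above 0 were Mrps27 (0.40), Mrpl3 (0.06) and Mrpl49 (0.01). These values share both LPS arrays with the comparison between the labels with LPS and are not independent of it.

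The additive limma fit asks which genes changed with LPS under both labels, or by label in both conditions, and called none of the 76 members. For LPS 0 members were called higher and 0 lower, against 2.02% and 2.11% of 10674 genes (Benjamini-Hochberg adjusted p under 0.05). At an unadjusted limma p under 0.05, 9 members (11.8%) were lower and 0 higher, against 20.2% of all genes lower and 9.3% higher. The lowest were Mrpl44 (mean LPS change -0.69, SE 0.14, limma adjusted p = 0.0696), Mrpl49 (-0.59, SE 0.13, limma adjusted p = 0.083) and Mrps26 (-0.64, SE 0.15, limma adjusted p = 0.0874), each lower with LPS under both labels. For the label 0 of 76 members and 0.0% of all genes were called in either direction, with 5 members (6.58%) lower and 0 higher at an unadjusted limma p under 0.05, against 2.39% of all genes lower and 3.99% higher. The fit has 1 residual degree of freedom, which is the difference of the LPS responses, so a member low on 1 LPS array alone has a large residual. The count of members called lower with LPS was 7 (9.21%) after seeded noise within the rounded decimals, against 11.8% of all genes. It was 4 (5.26%) after quantile normalization, against 10.1%, and 8 (10.5%) after removal of a gene span trend, against 12.5%. In each of these settings the share of members was below that of all genes.

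Gene span moved with the difference between the LPS arrays. Members are short, with a median span of 7690 bp against 21304 bp for all genes past the floor, and across all genes the difference with LPS, labelled Bid-/- minus WT, was higher at longer spans (Spearman's rho 0.408 across all genes and 0.184 across the members, as a description). The 4896 other genes within the 10th to 90th percentile of member span (2521 to 23708 bp) had a median of -0.07 with 59.2% below 0. After removal of the trend with span the member median was -0.42 with 71 of 76 below 0, against 48.1% of all genes. At least 1.5-fold lower were then 20 members, or 26.3%, against 4.57% of all genes. Mrps28 (-1.04) and Mrps6 (-0.98), both of long span, were then the lowest, and Mrpl44 (0.19) and Mrpl49 (0.08) the highest. Transcript length, RNA quality and a property of a single array were not tested.

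**Figure D4:**
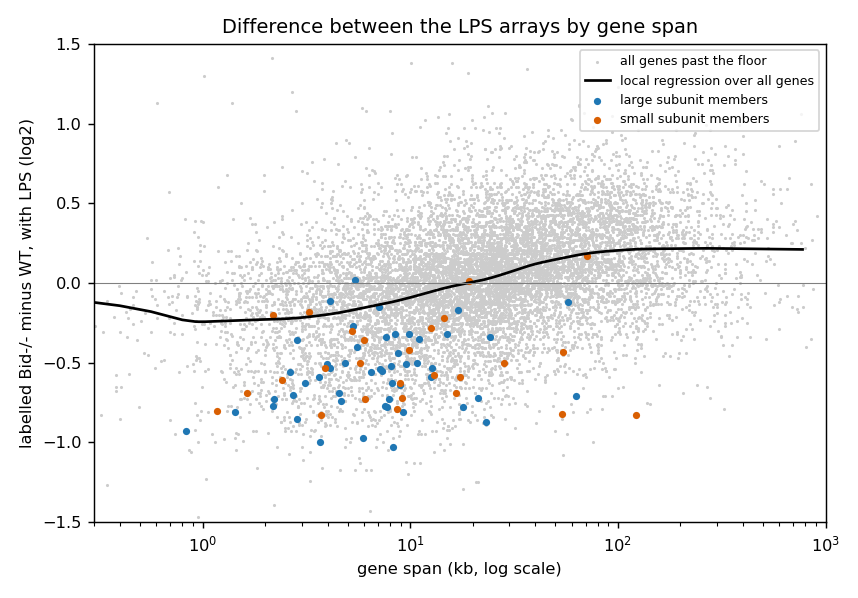
Difference of log2 expression with LPS, labelled Bid-/- minus WT (vertical axis, limited to 1.5 either way), against gene span in kb (log axis) for all genes past the floor (grey) and large (blue) and small (orange) subunit members; the black line is the local regression over all genes. The line lies below 0 at short spans and above 0 at long spans, and 71 of the 76 members lie below it.

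Among other genes of mitochondrial translation the medians lay nearer 0. Of 20 assembly factors past the floor (24 measured), 11 were below 0 between the LPS arrays, with a median of -0.055, or 0.01 after removal of the span trend. The 13 translation factors had a median of -0.03, the 15 mitochondrial aminoacyl-tRNA synthetases of 0.03, and the 14 genes of mitochondrial transcription, DNA and RNA handling of 0.105. Single genes of these lists had larger differences: Mrrf, the ribosome recycling factor, read 5.96 on the LPS array labelled Bid-/- and 7.04 on the WT LPS array (-1.08), the RNA-binding Slirp -0.74 and the GTPase Noa1 -0.72. In the other direction were Pnpt1, the polynucleotide phosphorylase (0.78), Eral1, a chaperone of the small subunit RNA (0.56), and Nsun4, a methyltransferase (0.55). Of 4 measured ribosomal proteins with names of another kind, Chchd1 (-0.80) and Gadd45gip1 (-0.57) were lower, and Dap3, the GTP-binding protein of the small subunit (0.23), and the pentatricopeptide repeat protein Ptcd3 (0.21) were higher.

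With LPS, these lists read lower under both labels. The medians on the arrays labelled Bid-/- and in WT were -0.30 and -0.19 for assembly factors, -0.34 and -0.20 for translation factors, -0.24 and -0.22 for the synthetases, and -0.35 and -0.35 for transcription and RNA. In the additive fit 1 gene of these 4 lists fell among the translation factors, the release factor gene Mtrf1 (-0.82 on the arrays labelled Bid-/- and -0.77 in WT, limma adjusted p = 0.0396), and 1 among the synthetases, Hars2 (-0.96 and -0.92, limma adjusted p = 0.041). Tfam, which packages and helps transcribe mitochondrial DNA, read -0.75 and -1.01 and did not pass (limma adjusted p = 0.0507). Of 9 nuclear regulators past the floor only Myc rose by the fit (0.98 and 1.45, limma adjusted p = 0.0466). The factors whose motifs were counted above read 0.74 and -0.02 (Nrf1), 0.67 and 0.34 (Gabpa) and 0.49 and 0.36 (Yy1), and none of these 3 passed.

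Oxidative phosphorylation subunits and cytosolic ribosomal proteins also read lower on the LPS array labelled Bid-/-. Between the LPS arrays, 73 of 77 oxidative phosphorylation subunits were below 0 with a median of -0.71, and 57 of 59 cytosolic ribosomal protein genes with a median of -0.54. After removal of the span trend these medians were -0.57 and -0.34, beside -0.42 for the mitochondrial ribosomal proteins. In WT both groups had higher LPS medians than the members, 0.20 and 0.25 against 0.09. On the arrays labelled Bid-/- the LPS medians were -0.38 and -0.25. Differences between the groups of genes were not tested.

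**Figure D5:**
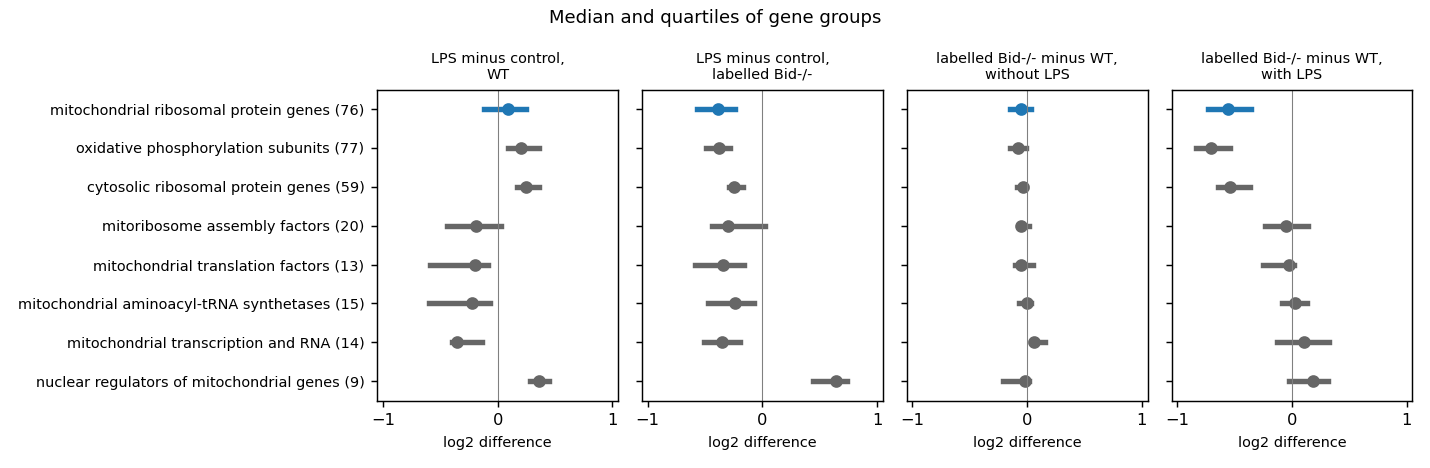
Median (point) and quartiles (bar) of the log2 difference (horizontal axis) of 8 groups of genes past the floor in 4 comparisons, with the number of genes in brackets and the mitochondrial ribosomal protein genes in blue. Between the LPS arrays (right) the members, the oxidative phosphorylation subunits and the cytosolic ribosomal proteins have medians from -0.71 to -0.54, and the other 5 groups from -0.055 to 0.18.

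Markers of the cells in the cultures also differed between arrays. Between the LPS arrays the 7 fibroblast and mural markers past the floor had a median of 0.21 with 2 below 0. The 2 were the contractile genes Tagln (-1.43) and Acta2 (-0.9), the largest differences of the list. The other 5 were above 0, the highest being Pdgfrb (0.52). The 11 microglia markers had a median of -0.21 with 7 below 0, among them Fcrls (-1.06) and Trem2 (-0.86). The other 4 were above 0, the highest being Ptprc (0.44). Fcrls was also lower under the Bid-/- label between the control arrays (-0.94). With LPS in WT the fibroblast and mural median was 0.76 with 0 of 7 below 0, and on the arrays labelled Bid-/- it was -0.04. Between the control arrays, labelled Bid-/- minus WT, it was 0.66, also with 0 of 7 below 0. The WT control array thus held low values of these markers. The part of these cells in the members' values was not tested.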

How the data were processed

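Mouse microglia RNA was hybridised to 4 arrays, 1 for each group. Per the submitters' processing notes, the tools were RMA, Affymetrix Expression Console and Partek 6.2, whose roles are not stated. The deposited values of 28944 probe sets were read as log2 expression, since they run from 1.4 to 13.5 with 2 decimals, but the file names no log base. Because RMA equalises the distributions of arrays, a shift common to every gene would not be seen. Precision is limited by the number of arrays. Gene symbols came from the platform annotation, in which 21789 probe sets have 1 symbol; the 1621 with several and the 5534 without one were left unnamed. Of the members, 77 were matched by Entrez identifier to RefSeq GRCm38.p6, used for gene span and promoter windows.

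The floor was set on the mean over all arrays, so that it does not depend on the differences. Counts are of genes at least 1.5-fold (0.585 on the log2 scale) or 2-fold different. An additive model of log2 expression on label and treatment was fitted to 10674 genes by limma 3.58.1 (R 4.3.3), using lmFit and trended eBayes, with p-values adjusted by Benjamini-Hochberg and a threshold of 0.05. It has 1 residual and 3.18 prior degrees of freedom; 157 genes had a residual of 0 from rounding. Nothing in the labels says that arrays came from separate cultures. The p-values rest on the residual, the difference of the LPS responses, moderated over all genes. They do not measure a spread between replicates. The LPS coefficient of the fit and the trend removal (lowess, statsmodels 0.14.6, fraction 0.3) were tried on simulated data. For the fit, these had independent noise, no label effect, no shared difference of LPS response and no rounding to 2 decimals. They therefore do not show how the fit behaves on the values here. Members to be named were the 5 highest and 5 lowest in each comparison and those at least 1.5-fold different or called. Those below the floor and a fixed set chosen for their roles were added. Not all of these are named above. Left out are, among others, Mrpl43 (-0.81) and Mrpl4 (-0.77) between the LPS arrays, labelled Bid-/- minus WT. From each other list, some of the genes called and some of the extremes are named. Also called with LPS were the microglia marker Cx3cr1 (mean LPS change -1.265) and the fibroblast and mural marker Pdgfrb (0.935). Others (Tfam, Nrf1, Gabpa, Yy1, Slirp, Noa1, Nsun4, Trem2, Fcrls, Acta2, single proteins of a site) were added after their values were seen. The members, lists and sites were chosen with earlier results of these data known. Alternatives were quantile normalization, other floors, averaging of probe sets, removal of trends with intensity and gene span, and a list of structural members alone.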

Additional observations from a re-analysis of the deposited data

Results flagged for a closer look

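The LPS difference of the members was mostly below 0 under the Bid-/- label and spread around 0 in WT. Its median was -0.385 on the arrays labelled Bid-/- and 0.09 in WT, against -0.10 and -0.05 for all genes. Of 76 members 44 were below 0 under the Bid-/- label and above 0 in WT, against 16.8% of all genes. A further 28 were below 0 and 3 above 0 under both labels, for which the shares of all genes were not counted. Mrpl34 had opposite signs with differences of at least 0.5 either way, at -0.58 on the arrays labelled Bid-/- and 0.58 in WT. With 1 array in each group the difference was not tested.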

How the results depend on the processing

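The deficit of the members between the LPS arrays kept its sign in all 8 other settings run. Its median was -0.42 and -0.435 after removal of a trend with gene span and with intensity and span together, with 20 and 22 members at least 1.5-fold lower, against 4.57% and 4.66% of all genes. In the same order of settings, the median difference of the LPS differences was -0.35 and -0.365 with 14 and 14 members at least 1.5-fold lower, against 4.41% and 4.4%. The median LPS difference on the arrays labelled Bid-/- was -0.24 and -0.215, with 8 and 7 members at least 1.5-fold lower, against 5.74% and 5.23%, and -0.215 after removal of an intensity trend alone. In WT the median was 0.195 after removal of an intensity trend, with 0 members at least 1.5-fold lower, against 7.59% of all genes. The cause was not tested. Calls of the additive fit varied more: 216 genes were called higher and 225 lower with LPS, against 180 and 119 without an intensity trend in eBayes, 0 and 0 with no floor, 655 and 1264 with noise inside the rounding, 808 and 1083 after quantile normalization and 1307 and 1327 after removal of a gene span trend. Members called lower with LPS were 7, 4 and 8 in the last 3. These shares were 9.21%, 5.26% and 10.5%, against 11.8%, 10.1% and 12.5% of all genes. In the last setting 1 member, Mrpl54, was called higher (1.32%), against 12.3% of all genes. For the label, calls over all genes were 0 and 0. They were 3 higher and 3 lower, 28 and 13, and 208 and 108 in those 3 settings. In the last, 3 members, Mrpl20, Mrpl48 and Mrps28, were called lower (3.95%), against 1.01% of all genes. Of 285 values of named members in each setting, 143 moved by more than the median residual SD of 0.11 after removal of a span trend and 28 after quantile normalization; no value at least 1.5-fold different turned its sign. No paired analysis was possible because each group has 1 array. No replicate could be left out, since that leaves the fit without residual degrees of freedom.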

Other observations

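Probe sets of the same gene did not always give the same value. Mrpl51 is the clearest case: between the LPS arrays, labelled Bid-/- minus WT, the probe set used gave -0.77 and the other 0.12, and with LPS in WT they gave 0.04 and -0.79. The probe sets of Mrpl27 gave -0.63 and -0.23, those of Mrpl47 -0.81 and -0.23, those of Mrps5 -0.69 and -0.31, and those of Mrpl41 -0.56 and -0.32. Those of Mrps33 (-0.72 and -0.64) and Mrps36 (-0.72 and -0.67) were closer. In 6 of these 7 genes both probe sets were lower on the LPS array labelled Bid-/-.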
